A study of Bos taurus with 96 samples.

Results

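The liver libraries of early lactation (EL, biopsies taken soon after calving) were compared between 8 Fert+ and 8 Fert- Holstein cows, 16 of the 96 libraries of the series. The members were the libraries whose labels give liver and Early Lactation, with the genotype taken from the fertility group in the label. Fert+ cows carried good and Fert- cows poor genetic merit for fertility traits, and both groups were chosen for similar merit for milk production. The genotypes are therefore selected groups of animals, not a single allele, and all 16 cows were lactating animals of a common breed sampled once in this comparison. Each library is polyA RNA of a percutaneous liver punch from a single cow, measured as read-pair counts per gene, and 13047 of 24616 annotated genes had enough counts to be tested. The question was which transcripts differed with genetic merit for fertility when lactation starts.

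The liver of the cow around calving makes glucose from propionate, lactate and amino acids, takes up the fatty acids that adipose tissue releases, oxidises them or stores them as triglyceride, and secretes most plasma proteins. Inflammation turns hepatocytes towards the positive acute-phase proteins, such as haptoglobin, serum amyloid A and alpha-1-acid glycoprotein (AGP). Shortage of amino acids or misfolded protein in the endoplasmic reticulum (ER) leads, through phosphorylation of the initiation factor eIF2 and translation of the transcription factor ATF4, to transcription of amino acid transporters, amino acid biosynthesis enzymes, aminoacyl-tRNA synthetases and chaperones.

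Library totals ranged from 19847803 to 26358063 counts in Fert+ and from 15821057 to 22586505 in Fert- cows. Values per cow are counts per 1000000 counts (CPM) of the effective library size, without gene length, so that levels are compared between cows and not between genes. Hepatocyte markers were abundant in all cows, with 10 markers summing to between 103787 and 190076 CPM. The library of Fert+ cow 3847 stood apart from the rest. It lay at 133.7 on a first principal component that held 40.3% of the variance, against -35.8 to 41.9 for the other cows. It was the highest of the 16 libraries in 3575 genes, where any other cow was highest in 220 to 1388. Fert- cow 164 was the next along that component and, with Fert- cow 419, had the lowest library weight (0.477) after cow 3847 (0.121). Because these cows belong to opposite genotypes and move some gene groups in opposite directions, results that rest on them are given with and without each. The liver libraries that cow 3847 gave in late pregnancy (LP) and in mid lactation (ML) were highest in 772 and 679 genes, within the range of the other cows. It belonged to a set of 3 of the 16 libraries (Fert+ cows 33 and 3847 and Fert- cow 419) with counts on most of 19 genes that are near 0 elsewhere. This set is called counting batch B here. The labels give no such batch, and what set these libraries apart was not tested. Of these libraries, that of cow 419 was highest in 1388 genes, the most after cow 3847, and that of cow 33 in 667.

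**Figure D1:**
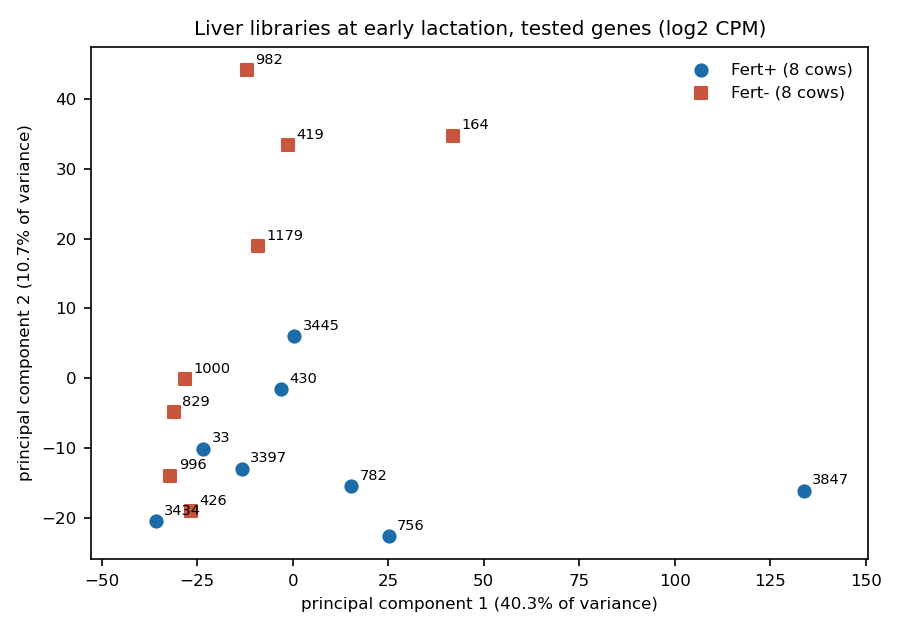
First and second principal components of the 16 early-lactation liver libraries over the tested genes, with each point a cow labelled by its number (circles Fert+, squares Fert-). Cow 3847 lies alone at 133.7 on the horizontal axis, where the other 15 cows lie between -35.8 and 41.9.

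No gene passed an adjusted p of 0.05 in the edgeR quasi-likelihood test, in which the smallest adjusted p was 0.346. At an unadjusted p under 0.05 there were 1530 genes (11.7% of those tested), of which 918 were higher (7.04%) and 612 lower (4.69%) in Fert+. Other tools gave more calls at an adjusted p of 0.05. The negative binomial exact test, run with one dispersion for all genes, called 301 genes (2.31%), 174 higher (1.33%) and 127 lower (0.973%), and without cow 3847 74 higher (0.567%) and 200 lower (1.53%). On simulated counts in which no gene differed, that test made 114 calls and the quasi-likelihood test 0. Where 200 genes were changed, the quasi-likelihood test made 185 calls, 14 of them false. Whether the simulated counts resemble these libraries, with cow 3847 among them, was not tested, so they do not rank the tests here. With the 16 cows, the DESeq2 Wald test called 12 genes, and limma-voom with library weights called 0. Without cow 3847 the quasi-likelihood test again called no gene, and 637 genes were higher (4.86%) and 652 lower (4.97%) at an unadjusted p under 0.05. Of the genes at an unadjusted p under 0.05 with all 16 cows, 504 higher and 485 lower genes were so in both fits. Without cow 164 there were 1282 higher (9.76%) and 742 lower (5.65%) genes. With cows 3847 and 164 both left out, 961 genes were higher (7.35%) and 775 lower (5.92%), with no gene past the adjusted threshold. Counts over gene lists below use the unadjusted p of the quasi-likelihood test. The p beside a named gene is the two-sided exact permutation p of its difference in mean log2(CPM + 1) over all arrangements of the 16 cows, or over all those of the cows left. Each gene named by symbol had an adjusted p of at least 0.379 in the quasi-likelihood test.

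Among the 500 genes of highest mean CPM, 12 were higher (2.40%) and 44 lower (8.80%) at an unadjusted p under 0.05, and 393 had a negative log2 fold change with a median of -0.24, where the median of all tested genes was 0.00. These 500 genes took between 65.2% and 70.6% of the counts of a Fert+ library (median 67.1%) and between 68.4% and 74.7% of a Fert- library (median 72.2%). The scaling of the libraries therefore mattered. With library totals in place of TMM scaling factors, the median log2 fold change of all genes moved from 0.00 to 0.17 and the split at an unadjusted p under 0.05 to 2711 higher (20.8%) and 135 lower (1.03%), so that the log2 fold changes below are relative to the centre that TMM sets. With that scaling, the members lower at an unadjusted p under 0.05 numbered 0 in the complement, plasma carrier, MHC class II, apolipoprotein and bile acid, sterol and xenobiotic lists described below.

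Gene groups were described through 24 lists, of which 342 of 550 entries could be matched to a gene name. Names were known for 2160 identifiers, 1178 of them only because the study had listed the gene as differing in some comparison, and 338 identifiers were on its list for liver at EL. Counts over a list are therefore drawn partly from genes chosen on these samples and are not independent evidence of a direction. The study's abundance tables held 1013 tested genes, with or without a name, a choice that did not use the genotypes. Of these, 42 were higher and 79 lower, and 705 had a negative log2 fold change, with a median log2 fold change of -0.15.

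**Figure D2:**
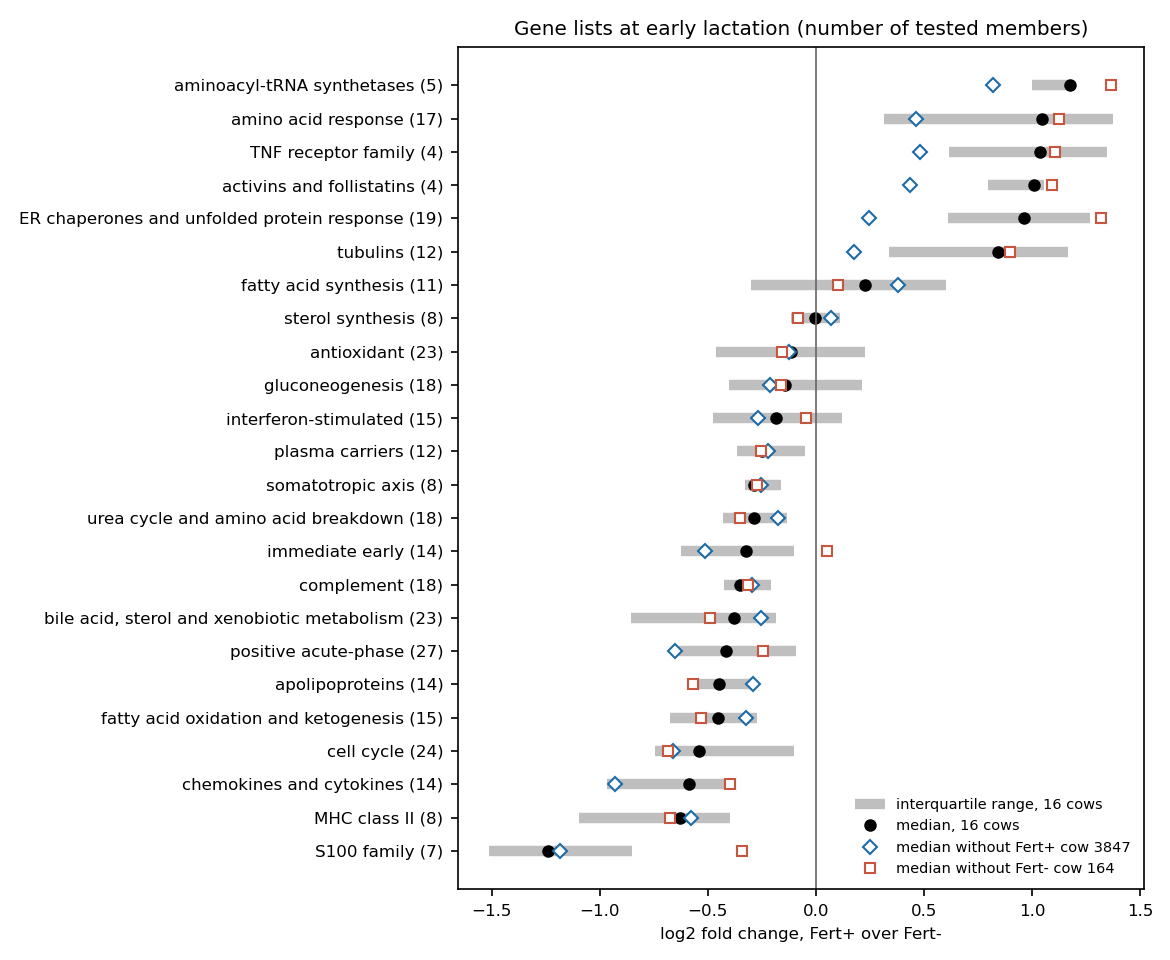
Median log2 fold change (Fert+ over Fert-) of the tested members of each of 24 gene lists at early lactation, with the number of tested members after each name, the interquartile range over members as a grey bar, and the median without Fert+ cow 3847 (diamond) or without Fert- cow 164 (square). The amino acid response, aminoacyl-tRNA synthetase and ER lists lie above 0 with and without cow 3847, while the S100 median moves from -1.24 to -0.34 without cow 164.

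Of 17 tested genes of the amino acid response, 15 had a positive log2 fold change, 6 were higher and 1 lower at an unadjusted p under 0.05, and the median was 1.05. Without cow 3847, 6 were higher and 0 lower with a median of 0.47, and with cows 3847 and 164 both left out 8 were higher with a median of 0.67. Of the 6 members named by the abundance tables, 5 had a positive fold change, and 1 was higher and 1 lower at an unadjusted p under 0.05.

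ASNS, which makes asparagine from aspartate and glutamine, ranged from 13.8 to 143 CPM in Fert+ (median 53.5) and from 10.2 to 68.8 CPM in Fert- cows (median 21.2). The groups overlapped, with 7 of 8 Fert+ cows above the Fert- median and cow 164 the highest Fert- cow. ASNS had a log2 fold change of 1.45 ± 0.47 (SE, permutation p = 0.0197), and 1.22 ± 0.47 without cow 3847 (permutation p = 0.0385). DDIT4, an inhibitor of the growth kinase complex mTORC1 that several stresses induce, ranged from 11.1 to 109.9 CPM in Fert+ (median 26) and from 6.86 to 19.6 CPM in Fert- cows (median 12.8). The next Fert+ cow after 3847 was at 34.4 CPM, and 5 Fert+ cows lay above every Fert- cow. The log2 fold change of DDIT4 was 1.39 ± 0.38 (permutation p = 0.00451), and 0.84 ± 0.24 without cow 3847 (permutation p = 0.00855).

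SLC3A2, the shared heavy chain of several amino acid transporters, ranged from 34.4 to 271 CPM in Fert+ (median 53.9) and from 29.3 to 75.5 CPM in Fert- cows (median 33.8), and all 8 Fert+ cows lay above the Fert- median. The log2 fold change of SLC3A2 was 1.13 ± 0.39 (permutation p = 0.0362) and 0.60 without cow 3847 (permutation p = 0.0688). Without cows 3847 and 164 it was 0.81 (permutation p = 0.00758). PYCR1, which catalyses the last step of proline synthesis, did not peak in cow 3847 (22.5 CPM). It ranged from 9.93 to 46.0 CPM in Fert+ (median 27.7) and from 1.96 to 33.3 CPM in Fert- cows (median 13.5), a log2 fold change of 1.05 ± 0.42 (permutation p = 0.0256). PSPH, which catalyses the last step of serine synthesis, ranged from 7.79 to 57.5 CPM in Fert+ (median 26.2) and from 2.96 to 50.7 CPM in Fert- cows (median 9.61), where the highest value was that of cow 164. For PSPH the log2 fold change of 1.10 ± 0.59 (permutation p = 0.14) was 1.82 without cow 164 (permutation p = 0.0415). ATF4 itself, the transcription factor of this response, had a log2 fold change of 0.51 ± 0.32 (permutation p = 0.183) with ranges of 170.4 to 722 CPM in Fert+ and 126 to 459 CPM in Fert- cows. Its highest values in the genotypes were those of cows 3847 and 164.

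Cytosolic aminoacyl-tRNA synthetases, which load amino acids onto their tRNAs, had a positive log2 fold change in all 5 tested members, 4 of them at an unadjusted p under 0.05 (3 without cow 3847, 4 with cows 3847 and 164 both left out). The median log2 fold change was 1.18, and 0.82 without cow 3847. All 5 names came from lists of the study, so none was chosen without the genotypes. MARS, for methionine, ranged from 19.9 to 128 CPM in Fert+ (median 47.4) and from 19.1 to 56.6 CPM in Fert- cows (median 22.3). Apart from cow 164, no Fert- cow reached the Fert+ median, and the log2 fold change was 1.18 ± 0.34 (permutation p = 0.0129), or 0.94 without cow 3847 (permutation p = 0.0249). GARS, for glycine, ranged from 14.4 to 124 CPM in Fert+ (median 34.7) and from 15.7 to 39.4 CPM in Fert- cows (median 19.99), a log2 fold change of 1.18 ± 0.35 (permutation p = 0.0183). All 8 Fert+ cows were above the Fert- median for CARS, for cysteine, with 15.2 to 116 CPM in Fert+ (median 27.1) against 12 to 44.6 CPM in Fert- cows (median 13). The log2 fold change of CARS was 1.23 ± 0.40 (permutation p = 0.0185), and it was 1.56 without cow 164 and 0.83 without cow 3847. TARS, for threonine, had a log2 fold change of 1.0 ± 0.38 (permutation p = 0.0584), which was 0.45 without cow 3847 (permutation p = 0.115). Without cows 3847 and 164 it was 0.61 (permutation p = 0.035).

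**Figure D3:**
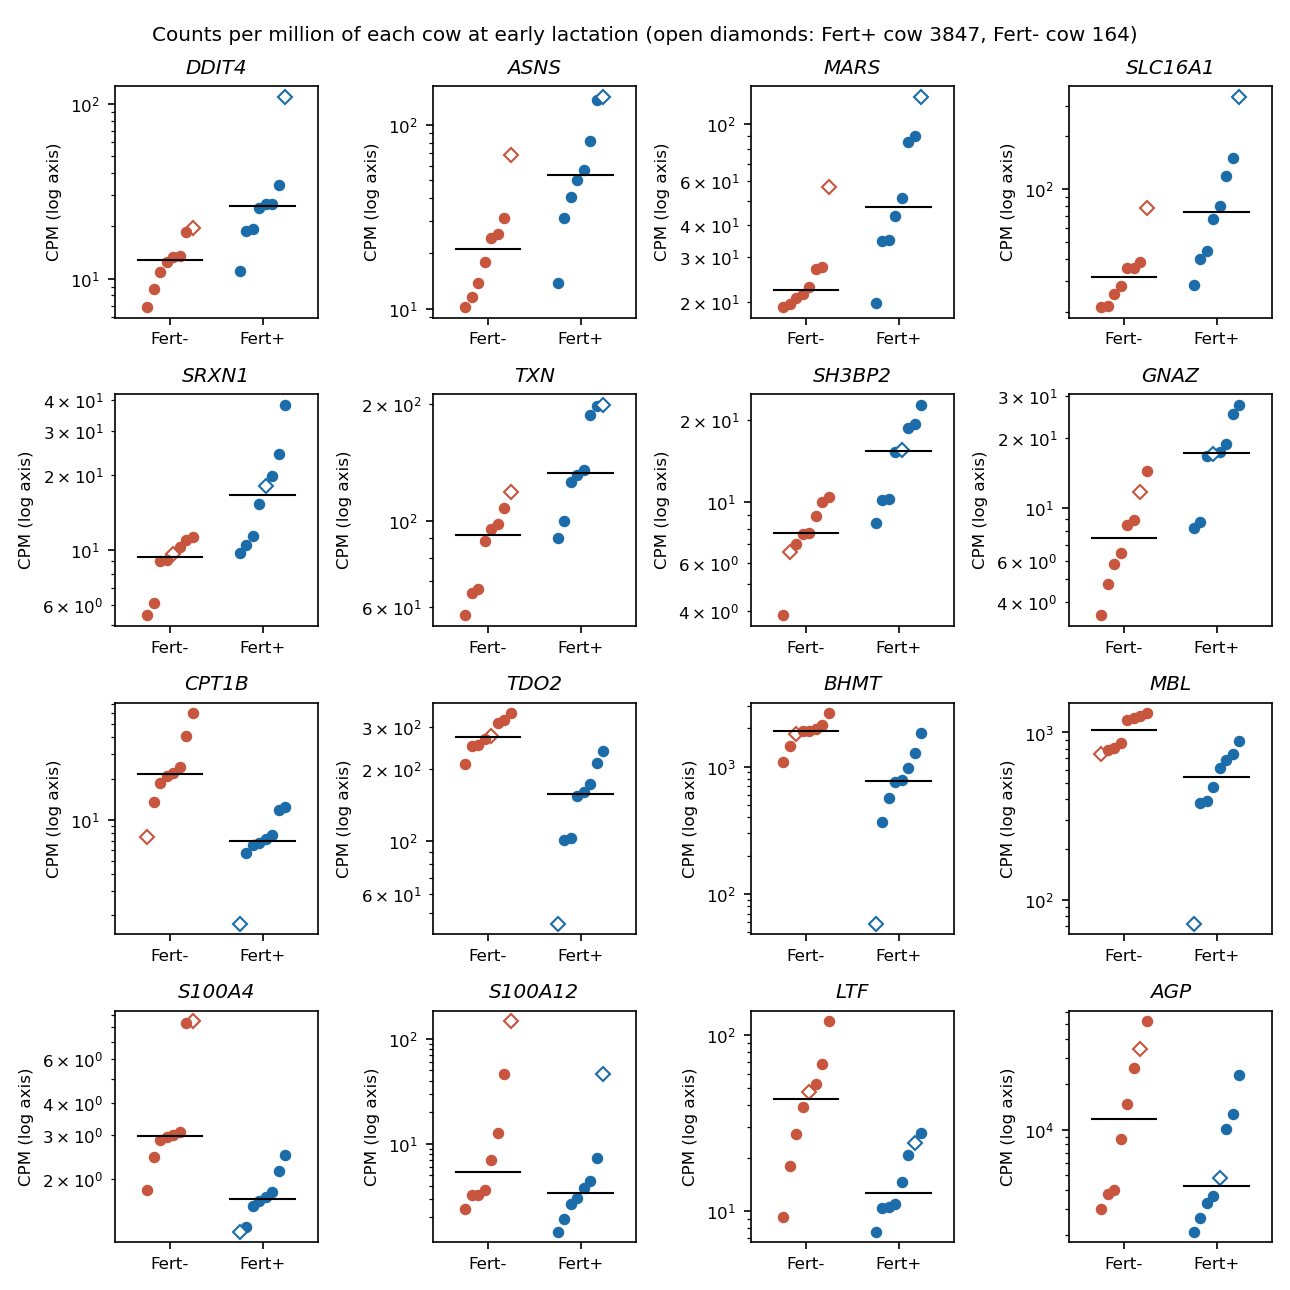
Level of 16 genes in each of the 8 Fert- and 8 Fert+ cows in CPM on a log axis, with the median of each genotype as a line and Fert+ cow 3847 and Fert- cow 164 as open diamonds. For DDIT4, ASNS and MARS the open diamonds are the highest of their genotypes, whereas for SRXN1, SH3BP2 and GNAZ cow 3847 lies near the middle of the Fert+ cows.

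The values of the ER chaperones and the unfolded protein response changed with cows 3847 and 164. Of 19 tested members, 18 had a positive log2 fold change, 7 were higher and 0 lower at an unadjusted p under 0.05, and the median was 0.96. Cow 3847 was the highest library in 18 of the 19, and without it 2 members were higher and the median was 0.25. Without cow 164, 13 members were higher and the median was 1.32. With cows 3847 and 164 both left out, 7 members were higher and the median was 0.59. The part of these cows in the result was not tested further.

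HYOU1, a chaperone of the ER lumen, was at 1646 CPM in cow 3847 and between 51.6 and 224 CPM in the other Fert+ cows, against 27.4 to 222 CPM in Fert- cows (median 69.7). HYOU1's log2 fold change of 2.01 ± 0.70 (permutation p = 0.0732) was 0.72 without cow 3847 (permutation p = 0.143) and 1.14 without cows 3847 and 164 (permutation p = 0.0431). HSP90B1, the ER member of the HSP90 chaperones, was at 13664 CPM in cow 3847 and at most 2652 CPM in another Fert+ cow, with a log2 fold change of 1.05 ± 0.57 (permutation p = 0.315) that was 0.06 without cow 3847. Of the genes of ER quality control and export named here, EDEM1, SEC24D and SAR1B kept a permutation p under 0.05 without that cow. SYVN1 did not. EDEM1, which hands misfolded glycoproteins over to degradation, ranged from 74.4 to 121 CPM in the 7 other Fert+ cows and from 51.8 to 93.2 CPM in Fert- cows (median 67.3). All 8 Fert+ cows lay above the Fert- median, and the log2 fold change of EDEM1 was 1.24 ± 0.40 (permutation p = 0.00264) with cow 3847, at 623 CPM, and 0.52 ± 0.15 without it (permutation p = 0.00575). SEC24D, which selects cargo for the COPII vesicles that leave the ER, ranged from 76.9 to 335 CPM in Fert+ (median 122) and from 50.6 to 102 CPM in Fert- cows (median 78.3). SEC24D had a log2 fold change of 0.96 ± 0.27 (permutation p = 0.0059), or 0.67 ± 0.20 without cow 3847 (permutation p = 0.011). SAR1B, the GTPase that starts COPII coat assembly, was not high in cow 3847 (79.0 CPM). It ranged from 78.1 to 114 CPM in Fert+ (median 85.0) and from 44.6 to 92.2 CPM in Fert- cows (median 56.3), a log2 fold change of 0.55 ± 0.16 (permutation p = 0.00233). SYVN1, the ubiquitin ligase of ER-associated degradation, had a log2 fold change of 0.93 ± 0.36 (permutation p = 0.0396) that was 0.46 without cow 3847 (permutation p = 0.0813). Without cows 3847 and 164 it was 0.69 (permutation p = 0.00583).

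Tubulins, the subunits of microtubules, also depended on cow 3847. Of 12 tested members, 5 were higher and 0 lower at an unadjusted p under 0.05, with a median log2 fold change of 0.84, and without cow 3847 2 were higher and 1 lower with a median of 0.18. Alpha-tubulin genes are nearly identical copies, so the split of reads between them is uncertain. One of the 2 identifiers named TUBA1C (ENSBTAG00000037775) was at 274 CPM in cow 3847 and at most 16.8 CPM in any other cow, and its log2 fold change of 3.1 was -0.02 without that cow. The other (ENSBTAG00000039992) ranged from 10.03 to 32.7 CPM in the remaining Fert+ cows and from 5.04 to 20.1 CPM in Fert- cows (median 7.51), with a log2 fold change of 2.26 ± 0.65 (permutation p = 0.00808) and 0.91 without cow 3847 (permutation p = 0.0157). The genes furthest above the next library in cow 3847, chosen after the values were seen, also included ANKRD1, a nuclear stress-responsive ankyrin repeat protein, at 112.5 CPM against at most 2.22 CPM in any other cow.

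Activin-related genes had positive log2 fold changes in all 4 tested members, 3 of them at an unadjusted p under 0.05 (1 without cow 3847). All 4 names came from lists of the study. INHBE, the beta E subunit of activin that the liver secretes, ranged from 17.8 to 226 CPM in Fert+ (median 73.3) and from 17.9 to 91.6 CPM in Fert- cows (median 40.7). The lowest Fert+ value was that of cow 3847, and the log2 fold change of INHBE was 1.0 ± 0.45 (permutation p = 0.159), or 1.16 ± 0.41 without that cow (permutation p = 0.0413). FST, the follistatin that binds and neutralises activins, was at 30.4 CPM in cow 3847 and at most 7.65 CPM in another Fert+ cow, against 2.2 to 6.09 CPM in Fert- cows. FST had a log2 fold change of 1.17 ± 0.43 (permutation p = 0.0559), and 0.51 without cow 3847 (permutation p = 0.112). FSTL1, a secreted follistatin-like glycoprotein, had a log2 fold change of 1.02 ± 0.47 (permutation p = 0.167), which was 0.36 without that cow (permutation p = 0.338).

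Of the TNF receptor family, 4 of 6 named members were tested and all 4 had positive log2 fold changes, 3 at an unadjusted p under 0.05 (2 without cow 3847). TNFRSF10D, a decoy receptor for the death ligand TRAIL, ranged from 3.52 to 25.2 CPM in Fert+ (median 7.16) and from 1.79 to 11 CPM in Fert- cows (median 4.62). For this receptor the log2 fold change was 1.26 ± 0.43 (permutation p = 0.0424) and 1.31 without cow 3847 (permutation p = 0.0532). TNFRSF12A, the receptor of TWEAK, was at 15 CPM in cow 3847 and at most 2.05 CPM in another Fert+ cow, and its log2 fold change of 1.62 ± 0.70 (permutation p = 0.318) was 0.17 without that cow (permutation p = 0.64). TNFRSF6B, a secreted decoy receptor, was too low for the gene filter. It was at 89.3 CPM in cow 3847 and at most 2.69 CPM in another Fert+ cow, with 0 to 4.92 CPM in Fert- cows and cow 164 the highest of these, and in the fit without a gene filter its log2 fold change was 3.98 ± 1.53 (permutation p = 0.242).

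Among 23 tested antioxidant genes, 2 were higher and 3 lower at an unadjusted p under 0.05 and the median log2 fold change was -0.12. The 2 higher ones belong to the thioredoxin and peroxiredoxin cycle and did not depend on cow 3847. SRXN1, which reduces overoxidised peroxiredoxins, ranged from 9.68 to 38.3 CPM in Fert+ (median 16.6) and from 5.45 to 11.3 CPM in Fert- cows (median 9.34). All 8 Fert+ cows lay above the Fert- median and 6 above every Fert- cow, with cow 3847 at 18 CPM and a log2 fold change of 1.04 ± 0.26 (permutation p = 0.00295). TXN, thioredoxin, ranged from 90.03 to 199 CPM in Fert+ (median 133) and from 57.0 to 119 CPM in Fert- cows (median 91.8), a log2 fold change of 0.74 ± 0.20 (permutation p = 0.0042) and 0.67 without cow 3847 (permutation p = 0.00808). PRDX6, a peroxiredoxin that uses glutathione, was lower, with 71.4 to 215 CPM in Fert+ (median 152) and 94.7 to 268 CPM in Fert- cows (median 233). No Fert+ cow exceeded the Fert- median, and the log2 fold change of PRDX6 was -0.55 ± 0.22 (permutation p = 0.0399), or -0.44 without cow 3847 (permutation p = 0.0777) and -0.66 without cow 164 (permutation p = 0.00124). SOD2, the mitochondrial superoxide dismutase, was at 269 CPM in cow 3847 and between 19.8 and 37.4 CPM in the other Fert+ cows, within reach of the 22.3 to 36.8 CPM of Fert- cows. Its log2 fold change of 1.0 ± 0.48 (permutation p = 0.547) was -0.01 without that cow.

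Outside these groups, the genes with the smallest quasi-likelihood p that were higher in Fert+ included PGP, a phosphatase of glycolate and glycerol phosphates, at 4.72 to 21.1 CPM in Fert+ (median 7.48) and 2.59 to 6.48 CPM in Fert- cows (median 3.59). All 8 Fert+ cows were above the Fert- median, and the log2 fold change of PGP was 1.29 ± 0.28 (permutation p = 0.000622), or 1.0 ± 0.22 without cow 3847 (permutation p = 0.00109). SH3BP2, a signalling adaptor protein, ranged from 8.38 to 22.7 CPM in Fert+ (median 15.4) and from 3.85 to 10.4 CPM in Fert- cows (median 7.69), a log2 fold change of 0.95 ± 0.22 (permutation p = 0.00202). GNAZ, a G protein alpha subunit, ranged from 8.28 to 27.6 CPM in Fert+ (median 17.2) and from 3.51 to 14.5 CPM in Fert- cows (median 7.47). Its log2 fold change was 1.12 ± 0.30 (permutation p = 0.00513), and it differed by 0.01 without cow 3847 (1.13). LARP1B, a La-related RNA-binding protein, had 6 Fert+ cows above every Fert- cow and a log2 fold change of 1.05 ± 0.26 (permutation p = 0.00311). TRMT61A, the catalytic subunit of a tRNA adenosine methyltransferase, had a log2 fold change of 0.96 ± 0.27 (permutation p = 0.0073).

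SLC16A1 (MCT1), which carries lactate, pyruvate and ketone bodies across membranes, ranged from 28.2 to 338 CPM in Fert+ (median 73.8) and from 21.2 to 78.6 CPM in Fert- cows (median 31.6). The highest values of the genotypes were those of cows 3847 and 164, and the other Fert- cows stayed below the Fert+ median. For SLC16A1 the log2 fold change was 1.61 ± 0.45 (permutation p = 0.0121) and 1.10 ± 0.36 without cow 3847 (permutation p = 0.0236). SUCLA2, a subunit of the succinate-CoA ligase of the citric acid cycle, was at 131 CPM in cow 3847 and between 14.9 and 37.5 CPM in the other Fert+ cows, against 13.4 to 22.5 CPM in Fert- cows. The log2 fold change was 1.16 ± 0.39 (permutation p = 0.0202), and 0.50 without cow 3847 (permutation p = 0.0365). PGM3, an enzyme of the hexosamine pathway that feeds protein glycosylation, had a log2 fold change of 1.07 ± 0.39 (permutation p = 0.0597), which was 0.65 without cow 3847 (permutation p = 0.118). Without cows 3847 and 164 it was 0.87 (permutation p = 0.0297).

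Positive acute-phase genes had negative log2 fold changes in 22 of 27 tested members, 4 of them lower and 0 higher at an unadjusted p under 0.05, with a median of -0.42. The median was -0.65 without Fert+ cow 3847, -0.24 without Fert- cow 164 and -0.24 with library totals as the scaling. Of the 23 members held by the abundance tables, 20 had a negative log2 fold change and 3 were lower. Most of the 500 genes of highest mean CPM were negative too, and 8.80% of them were lower. MBL, a mannose-binding collectin of the lectin pathway, ranged from 71.9 to 895 CPM in Fert+ (median 545) and from 743 to 1307 CPM in Fert- cows (median 1031). The lowest value was that of cow 3847, 7 Fert+ cows lay below every Fert- cow, and the log2 fold change was -0.94 ± 0.34 (permutation p = 0.00171), or -0.78 ± 0.21 without cow 3847 (permutation p = 0.0028). LRG1, a leucine-rich secreted glycoprotein, ranged from 649 to 1344 CPM in Fert+ (median 793) and from 829 to 1790.2 CPM in Fert- cows (median 1219), with 6 Fert+ cows below every Fert- cow. Its log2 fold change was -0.55 ± 0.19 (permutation p = 0.0113).

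The classical inducible proteins also varied between cows of the same genotype. AGP, alpha-1-acid glycoprotein, ranged from 2104 to 22931 CPM in Fert+ (median 4209) and from 2982 to 52173 CPM in Fert- cows (median 11711). The ranges overlapped widely and the log2 fold change was -1.23 ± 0.65 (permutation p = 0.171). HPX, the heme-binding hemopexin, had a log2 fold change of -0.69 ± 0.32 (permutation p = 0.172), which was -0.38 without cow 164 (permutation p = 0.351), whose level of 16917 CPM stood beside a Fert- median of 5069 CPM. M-SAA3.2 and SAA3, serum amyloid A genes of near-identical sequence whose reads may be split uncertainly, had medians of 0.646 and 22.4 CPM in Fert+ and of 2.83 and 24.8 CPM in Fert- cows. The highest Fert- values were 39.3 CPM in cow 164 for M-SAA3.2 and 973 CPM in cow 982 for SAA3. Their log2 fold changes were -2.14 ± 1.01 (permutation p = 0.241) and -1.15 ± 1.18 (permutation p = 0.471). The first was -0.64 without cow 164 (permutation p = 0.498), and the second was 0.16 without cow 982. FGB, the fibrinogen beta chain, had a median of 40006 CPM among Fert+ and 37348 among Fert- cows and a log2 fold change of -0.20 ± 0.36 (permutation p = 0.789), which turned to 0.13 without cow 164 and to 0.03 with library totals as the scaling.

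Of 12 tested plasma carrier genes, 9 had a negative log2 fold change and 1 was lower at an unadjusted p under 0.05, near the shares of the 500 genes of highest mean CPM (393 negative and 8.80% lower). The member at p under 0.05 was AFM, the vitamin E-binding afamin, at 58.0 to 385 CPM in Fert+ (median 169.9) and 164 to 482 CPM in Fert- cows (median 325), a log2 fold change of -0.68 ± 0.31 (permutation p = 0.0255). RBP4, the plasma carrier of retinol, had a median of 2969 CPM among Fert+ and 4369 among Fert- cows and a log2 fold change of -0.53 ± 0.25 (permutation p = 0.0385), or -0.41 without cow 3847 (permutation p = 0.0758) and -0.63 without cow 164 (permutation p = 0.00357). ALB, albumin, differed less than its spread, with a log2 fold change of -0.38 ± 0.39 (permutation p = 0.677) and the lowest value of all cows, 9776 CPM, in Fert- cow 164.

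Complement genes differed by smaller amounts. Of 18 tested members, 16 had a negative log2 fold change, 5 were lower and 0 higher at an unadjusted p under 0.05, and the median was -0.35. Cow 3847 was the lowest library in 10 of them, and without it 2 were lower with a median of -0.29. With library totals as the scaling 0 were lower and the median was -0.16. Among the 500 genes of highest mean CPM, most had a negative log2 fold change and 8.80% were lower. C8A, a chain of the membrane attack complex, ranged from 505 to 1184 CPM in Fert+ (median 887) and from 932 to 1509 CPM in Fert- cows (median 1146). The log2 fold change was -0.48 ± 0.18 (permutation p = 0.00544), and -0.40 without cow 3847 (permutation p = 0.011). C9, the pore-forming component, had 6 Fert+ cows below every Fert- cow and a log2 fold change of -0.39 ± 0.17 (permutation p = 0.00963). C2 and C1S, proteases of the classical pathway, had log2 fold changes of -0.52 ± 0.22 (permutation p = 0.0309) and -0.44 ± 0.19 (permutation p = 0.0284), and without cow 3847 of -0.44 and -0.37 (permutation p = 0.0606 and 0.0634).

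For the S100 family and granule proteins of neutrophils, 2 cows of opposite genotype decided much of the values. Of 7 tested S100 genes, 6 had a negative log2 fold change and 2 were lower at an unadjusted p under 0.05. The median was -1.24, and it was -0.34 without cow 164 and -0.94 with cows 3847 and 164 both left out. S100A12, a calgranulin abundant in neutrophils, was at 45.8 CPM in cow 3847 and between 1.45 and 7.25 CPM in the other Fert+ cows, and ranged from 2.39 to 147 CPM in Fert- cows (median 5.36), with the highest value in cow 164. Its log2 fold change of -1.68 ± 0.95 (permutation p = 0.264) was -3.01 without cow 3847 (permutation p = 0.088), -0.34 without cow 164 (permutation p = 0.535) and -1.67 without both (permutation p = 0.138). S100A8 and S100A9, which form the heterodimer calprotectin, behaved likewise across those fits. S100A8 had a log2 fold change of -1.67, which was -3.30 without cow 3847, -0.05 without cow 164 and -1.69 without both. S100A9 had one of -1.36, which was -3.08 without cow 3847, -0.14 without cow 164 and -1.86 without both.

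S100A4, a calcium-binding protein of motile and mesenchymal cells, did not rest on these cows. It ranged from 1.24 to 2.50 CPM in Fert+ (median 1.67) and from 1.82 to 8.46 CPM in Fert- cows (median 2.98). All 8 Fert+ cows lay below the Fert- median and 6 below every Fert- cow, and the log2 fold change was -1.24 ± 0.31 (permutation p = 0.000932), or -0.94 without cows 3847 and 164 (permutation p = 0.0035). S100A13 had a log2 fold change of -0.95 ± 0.40 (permutation p = 0.0883), with -0.73 without cow 164 (permutation p = 0.171). LTF, the iron-binding lactoferrin of neutrophil granules and secretory epithelia, ranged from 7.62 to 27.6 CPM in Fert+ (median 12.7) and from 9.31 to 119 CPM in Fert- cows (median 43.2). No Fert+ cow exceeded the Fert- median, and the log2 fold change of LTF was -1.59 ± 0.42 (permutation p = 0.0132), or -1.70 without cow 3847 (permutation p = 0.0123). The neutrophil markers include LTF, S100A8, S100A9 and S100A12, so their sum is not separate from the values of these genes. Of 25 listed markers 18 were found, and their summed level ranged from 14.2 to 131 CPM in Fert+ (median 22.2) and from 14.9 to 376 CPM in Fert- cows (median 57.1), with 131 CPM in cow 3847 and 376, 211 and 142 CPM in Fert- cows 164, 982 and 419. None of the found markers was at 0 in all cows. Their part in the S100 and LTF results was not tested, and in a bulk biopsy fewer cells of a type and less RNA per cell cannot be told apart.

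**Figure D4:**
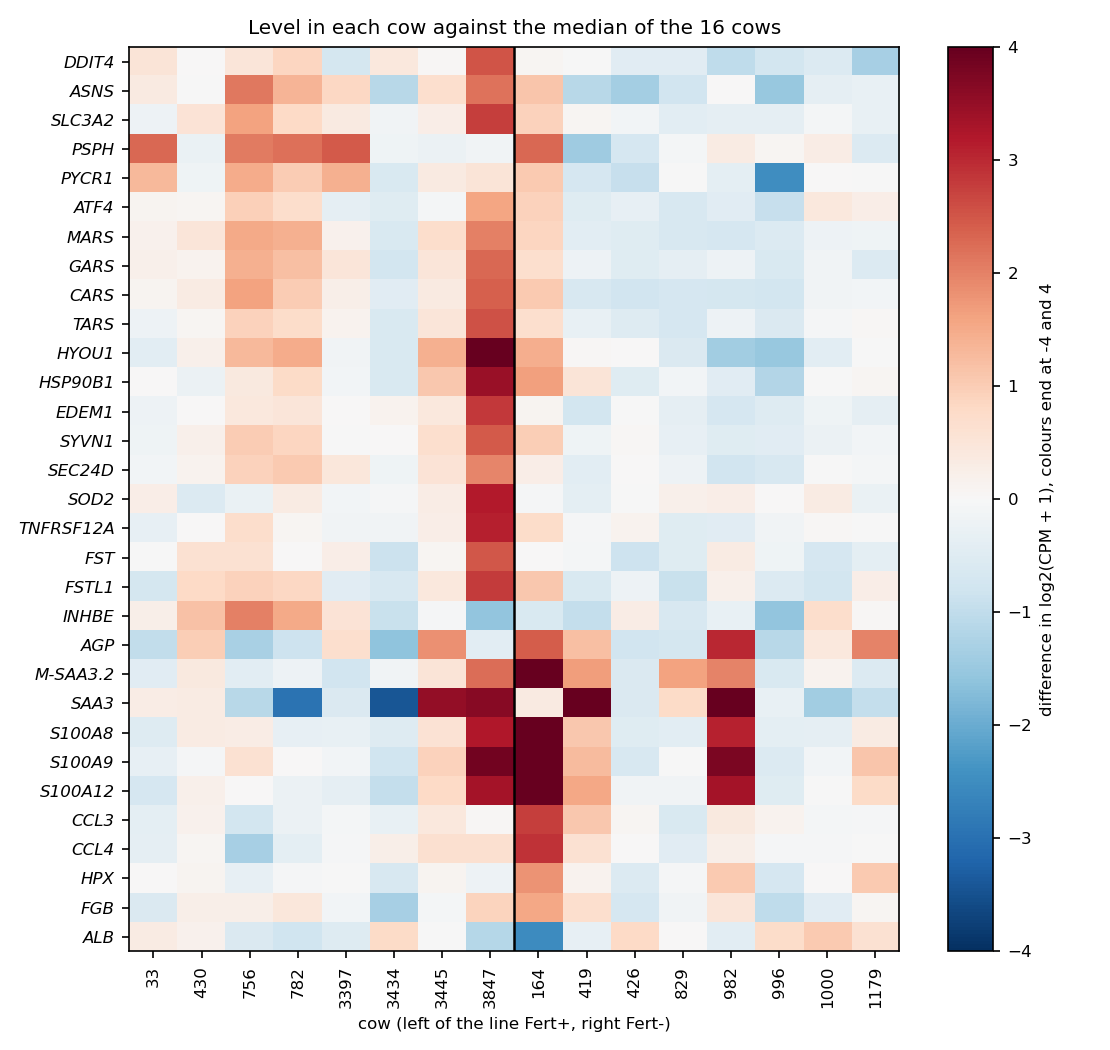
Difference of log2(CPM + 1) from the median of the 16 cows (red above, blue below) for 31 genes in each cow, Fert+ cows left of the line and Fert- cows right of it. Most of the amino acid and ER genes shown are highest in cow 3847 and many are also above the median in Fert+ cows 756 and 782 and Fert- cow 164, and the calgranulins S100A8, S100A9 and S100A12 are highest in cows 164, 982 and 3847.

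The list of chemokines and cytokines had a negative log2 fold change in 12 of 14 tested members, 3 of them lower in Fert+ at an unadjusted p under 0.05, with a median log2 fold change of -0.59 (-0.93 without cow 3847 and -0.40 without cow 164). CCL21, which draws lymphocytes and dendritic cells through CCR7, ranged from 0.337 to 1.71 CPM in Fert+ (median 0.654) and from 0.865 to 4.23 CPM in Fert- cows (median 1.52), a log2 fold change of -1.10 ± 0.38 (permutation p = 0.0132). CCL3 and CCL4, the macrophage inflammatory proteins, were at 13.7 and 30.8 CPM in cow 164 and at most 1.93 and 5.65 CPM in any Fert+ cow. Their log2 fold changes of -1.56 ± 0.59 (permutation p = 0.129) and -1.02 ± 0.54 (permutation p = 0.36) were -0.58 and -0.05 without cow 164. CXCL10, an interferon-induced chemokine for T cells, had a log2 fold change of -1.30 ± 0.54 (permutation p = 0.0699), with -0.65 without Fert- cow 982 (permutation p = 0.143).

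MHC class II genes, which present antigen on macrophages, dendritic and B cells, had negative log2 fold changes in 7 of 8 tested members, 3 of them at an unadjusted p under 0.05, with a median of -0.63 and -0.58 without cow 3847. Without counting batch B 0 members were lower with a median of -0.47, and with library totals 0 with -0.45. CD74, the invariant chain, ranged from 168 to 494 CPM in Fert+ (median 292) and from 309 to 511 CPM in Fert- cows (median 419), with 6 Fert+ cows below every Fert- cow and a log2 fold change of -0.48 ± 0.20 (permutation p = 0.0165). BOLA-DRA, the class II alpha chain, had a log2 fold change of -0.49 ± 0.21 (permutation p = 0.0264), and BOLA-DMA, which loads peptide, one of -0.76 ± 0.29 (permutation p = 0.0186). Markers of B and plasma cells had negative log2 fold changes in all 8 tested members, 4 of them at an unadjusted p under 0.05, and summed to 51.2 to 238 CPM in Fert+ (median 206) and 114 to 574 CPM in Fert- cows (median 202). The highest sums were those of Fert- cows 982 (574 CPM) and 164 (551 CPM), and no other cow exceeded 277.4 CPM. Of the macrophage markers 5 of 6 had negative log2 fold changes and 0 passed an unadjusted p of 0.05, with sums of 481 to 978 CPM in Fert+ and 612 to 1537 CPM in Fert- cows. The part of these cells in the MHC class II values was not tested.

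Genes of fatty acid uptake and oxidation had mostly negative log2 fold changes. Of 15 tested members, 14 had a negative log2 fold change, 3 were lower and 0 higher at an unadjusted p under 0.05, and the median was -0.45. Without cow 3847, 4 were lower with a median of -0.32, and with cows 3847 and 164 both left out 6 were lower. With library totals as the scaling 1 was lower and the median was -0.29. Among the 500 genes of highest mean CPM, most were negative too and 8.80% were lower. Outside this list, and named through the study's list for EL, CPT1B, the muscle isoform of the carnitine palmitoyltransferase that admits fatty acids to mitochondria, ranged from 1.74 to 12.4 CPM in Fert+ (median 6.99) and from 7.44 to 60.1 CPM in Fert- cows (median 21.4). The lowest Fert- cow was cow 164, all 8 Fert+ cows lay below the Fert- median, and the log2 fold change was -1.79 ± 0.39 (permutation p = 0.000932), or -1.64 ± 0.36 without cow 3847 (permutation p = 0.00264). Skeletal muscle markers summed to at most 1.2 CPM in any cow, with MYH1, MYH2 and MYH7 at 0. ACSL1, which activates long-chain fatty acids, ranged from 290.1 to 767 CPM in Fert+ (median 621) and from 507 to 1586 CPM in Fert- cows (median 954), a log2 fold change of -0.69 ± 0.23 (permutation p = 0.0138). CD36, a fatty acid translocase, ranged from 12.8 to 28.3 CPM in Fert+ (median 20.7) and from 16 to 51.4 CPM in Fert- cows (median 28.8), with no Fert+ cow above the Fert- median and a log2 fold change of -0.66 ± 0.22 (permutation p = 0.0242). ANGPTL4, an inhibitor of lipoprotein lipase that fatty acids induce, had a log2 fold change of -0.65 ± 0.27 (permutation p = 0.0575).

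All 14 tested apolipoproteins had a negative log2 fold change, 2 of them at an unadjusted p under 0.05, with a median of -0.45 and -0.29 without cow 3847. Most of the 500 genes of highest mean CPM were also negative, and 8.80% of them were lower. APOA1, the main protein of high-density lipoprotein, ranged from 142 to 685 CPM in Fert+ (median 373) and from 194 to 995 CPM in Fert- cows (median 716), and no Fert+ cow exceeded the Fert- median (log2 fold change -0.71 ± 0.33, permutation p = 0.101). APON, an apolipoprotein of ovarian and liver tissue in cattle, had 114 to 411 CPM in Fert+ and 184 to 707 CPM in Fert- cows (log2 fold change -0.66 ± 0.27, permutation p = 0.0617). APOA2, also of high-density lipoprotein, was below every Fert- cow in 5 Fert+ cows (log2 fold change -0.57 ± 0.28, permutation p = 0.0213). DGAT2, which makes triglyceride, ranged from 4.41 to 38.2 CPM in Fert+ (median 22.6) and from 27.2 to 51.7 CPM in Fert- cows (median 37.1). It was the single member of 11 in the fatty acid synthesis list at an unadjusted p under 0.05, with a log2 fold change of -0.76 ± 0.30 (permutation p = 0.00466), while the median of that list was 0.23.

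Of 18 tested genes of the urea cycle and amino acid breakdown, 15 had a negative log2 fold change and 2 were lower at an unadjusted p under 0.05, with a median of -0.29, where 393 of the 500 genes of highest mean CPM were negative. TDO2, which opens the indole ring of tryptophan, ranged from 45.0 to 239 CPM in Fert+ (median 157) and from 211 to 343 CPM in Fert- cows (median 272). Of the Fert+ cows 6 lay below every Fert- cow, and the log2 fold change of TDO2 was -0.91 ± 0.25 (permutation p = 0.000466), or -0.78 ± 0.19 without cow 3847 (permutation p = 0.000622). BHMT, which remethylates homocysteine from betaine, was at 58.6 CPM in cow 3847 and ranged up to 1828 CPM in Fert+ (median 770.0), against 1083 to 2627 CPM in Fert- cows (median 1887). All 8 Fert+ cows lay below the Fert- median, and the log2 fold change of BHMT was -1.16 ± 0.43 (permutation p = 0.00186), or -0.98 ± 0.29 without cow 3847 (permutation p = 0.00357). Of 23 tested genes of bile acid, sterol and xenobiotic metabolism, 19 had a negative log2 fold change and 2 were lower (0 without cow 3847), near the 8.80% lower among the 500 genes of highest mean CPM. One of 2 identifiers of CYP3A5, a monooxygenase of drugs and steroids, had a median of 964 CPM among Fert+ and 1395 among Fert- cows. Its lowest values were those of cows 3847 (222 CPM) and 164 (305 CPM). The log2 fold change was -0.90 ± 0.40 (permutation p = 0.13), where the other identifier had -0.37. For the first it was -1.05 without cow 164 (permutation p = 0.00451) and -0.91 without cows 3847 and 164 (permutation p = 0.00699). Without cow 3847 alone the permutation p was 0.259.

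Further genes with the smallest quasi-likelihood p that were lower in Fert+ had low counts. CFTR, the chloride channel that liver expresses in bile ducts, ranged from 2.68 to 5.27 CPM in Fert+ (median 3.28) and from 3.92 to 13.4 CPM in Fert- cows (median 6.31), a log2 fold change of -1.0 ± 0.22 (permutation p = 0.000932). Cholangiocyte markers, a list that includes CFTR itself, had negative log2 fold changes in all 6 tested members, 3 at an unadjusted p under 0.05. They summed to 223 to 526 CPM in Fert+ and 404 to 497 CPM in Fert- cows, with the lowest sum in cow 3847. Their part in the CFTR value was not tested. TCAP and MYOZ1, proteins of the sarcomere Z-disc, were at 1.56 to 2.55 and 0.918 to 3.60 CPM in Fert+ and at 2.05 to 5.06 and 2.94 to 6.45 CPM in Fert- cows, with log2 fold changes of -0.83 ± 0.19 (permutation p = 0.00155) and -1.07 ± 0.27 (permutation p = 0.000466). PRSS8, the membrane protease prostasin, had a log2 fold change of -1.12 ± 0.28 (permutation p = 0.00109), SULT1C3, a sulfotransferase, one of -1.38 ± 0.35 (permutation p = 0.00124), and FAM127A one of -1.16 ± 0.32 (permutation p = 0.0042).

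Of 18 gluconeogenesis genes 2 were higher and 0 lower at an unadjusted p under 0.05, with a median log2 fold change of -0.14 that turned to 0.02 with library totals as the scaling. The 2 higher members were SUCLA2 and PGM3, described above with the citric acid cycle and the hexosamine pathway, both on the study's list for liver at EL. Of the 13 members held by the abundance tables and not on that list, 0 were higher and 0 lower, and 9 had a negative log2 fold change. None of 8 sterol synthesis genes and none of 8 genes of the somatotropic axis passed an unadjusted p of 0.05, and their medians were -0.00 and -0.28. Of 15 interferon-stimulated genes 1 was lower (median -0.18, and 0.02 with library totals), of 24 cell cycle genes 2 were lower (median -0.54) and of 14 immediate early genes 0 passed an unadjusted p of 0.05 (median -0.32, and 0.05 without cow 164).

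All 8 cows of one genotype lay above all 8 of the other in 7 genes (0.0537%), 4 of them higher (0.0307%) and 3 lower (0.023%) in Fert+. One of them has a symbol, DYNLRB2, a light chain of cytoplasmic dynein, at 0.413 to 1.49 CPM in Fert+ (median 1.09) and 1.57 to 3.08 CPM in Fert- cows (median 1.90), a log2 fold change of -0.89 ± 0.22 (permutation p = 0.000155, the smallest that 8 against 8 cows can give). The gene with the smallest quasi-likelihood p of all, ENSBTAG00000012534, has no symbol here. It ranged from 1.45 to 2.60 CPM in Fert+ (median 1.72) and from 0.630 to 1.18 CPM in Fert- cows (median 0.960), a log2 fold change of 1.0 ± 0.18 (permutation p = 0.000155, adjusted p = 0.346). This gene is one of the 7. Full separation fixes the permutation p of all 7 at 0.000155, so that p is no evidence beyond the separation itself. A random arrangement of the cows separates a gene with that same probability, and 13047 genes were examined.

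The genotype difference at EL was set against the mean difference at LP and ML in the livers of the same cows. No gene passed an adjusted p of 0.05 (smallest 0.118, edgeR quasi-likelihood test), and at an unadjusted p under 0.05 there were 1496 of 13815 genes (10.8%), 1135 with a higher (8.22%) and 361 with a lower (2.61%) Fert+ over Fert- difference at EL. Without cow 3847 at EL there were 897 (6.47%), 560 higher (4.04%) and 337 lower (2.43%). With each cow as a replicate block there were 1658 (12%), 1020 higher (7.38%) and 638 lower (4.62%), and again 0 past the adjusted threshold. At the other time-points on their own, 396 genes were higher (3.08%) and 446 lower (3.46%) at LP and 708 higher (5.35%) and 932 lower (7.04%) at ML. The amino acid response had 10 of 18 members with a higher difference at EL, the aminoacyl-tRNA synthetases 5 of 5, the ER list 12 of 19, and the tubulins 6 of 12. Complement had 6 of 18 and the acute-phase list 5 of 28 members with a lower difference at EL, with 0 the other way in each of these lists. The list counts include cow 3847 at EL and were not repeated without it. That cow was the highest library at EL in 18 of the 19 ER and 8 of the 12 tubulin genes. The study's list for liver at EL held 10 of the 18 amino acid, 4 of the 5 synthetase, 12 of the 19 ER and 6 of the 12 tubulin members. The counts are therefore not independent evidence of a difference at EL.

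**Figure D5:**
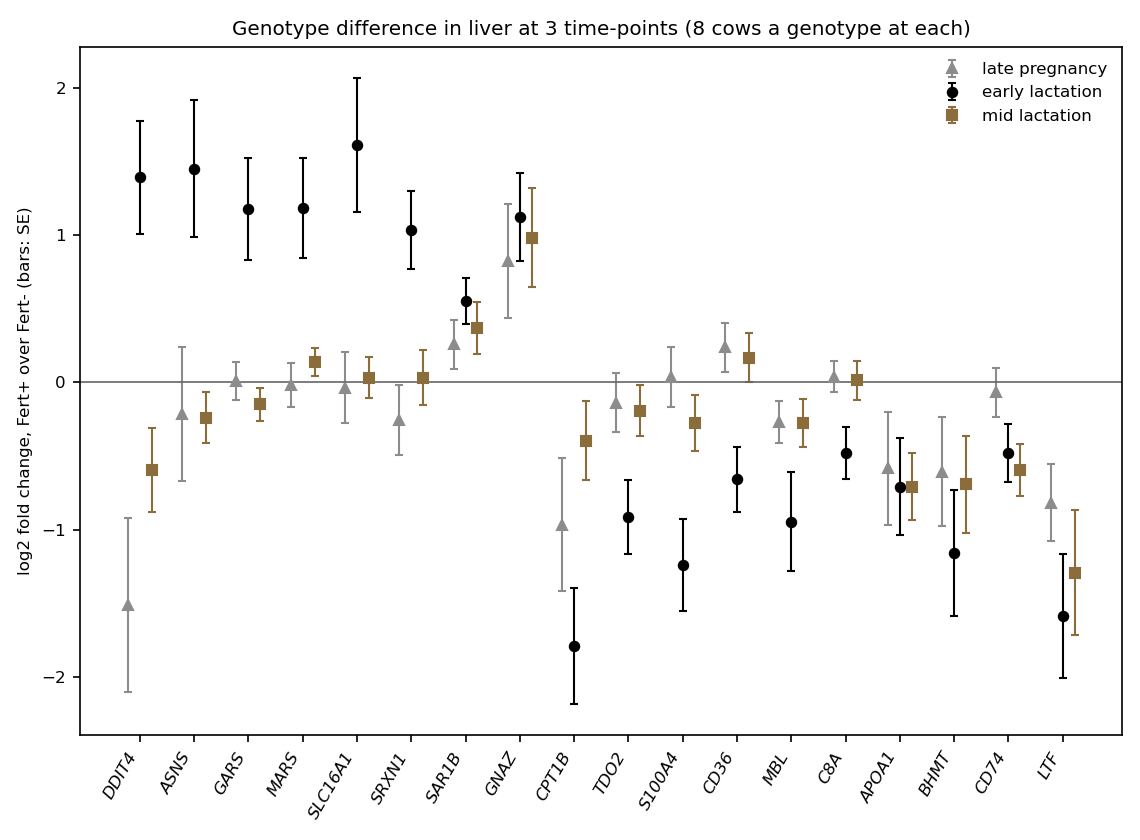
Log2 fold change of Fert+ over Fert- (points) with its standard error (bars) for 18 genes in liver over the 3 time-points LP, EL and ML, each from 8 cows a genotype. GARS, MARS and SLC16A1 lie between -0.15 and 0.14 at the other time-points and above 1 at early lactation, while GNAZ lies above 0 and LTF below 0 at all 3.

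The 5 named genes with the smallest quasi-likelihood p of this comparison were GARS, DDIT4, DESI1, SLC16A1 and TIMM17A. GARS had medians of 16.8 and 18.8 CPM at LP and of 16 and 18.2 CPM at ML in Fert+ and Fert- cows, and its log2 fold changes there were 0.01 and -0.15. The difference of EL from these was 1.26 ± 0.29 (permutation p = 0.00715 over each cow's EL level less the mean of its LP and ML levels), or 0.89 without cow 3847 at EL. For DDIT4 the log2 fold change at LP had the opposite sign. At LP its median was 14.4 CPM among Fert+ and 21.6 among Fert- cows, of which the highest was at 159, and its log2 fold change was -1.51 (permutation p = 0.245) at LP and -0.59 (permutation p = 0.0619) at ML, which made the difference at EL 2.45 ± 0.56 (permutation p = 0.000311). SLC16A1 had log2 fold changes of -0.04 at LP and 0.03 at ML and a difference of 1.62 ± 0.40 (permutation p = 0.0117). DESI1, a deSUMOylating peptidase, and TIMM17A, a subunit of the mitochondrial inner membrane translocase, had differences of 1.39 ± 0.32 and 1.22 ± 0.30. ASNS, with log2 fold changes of -0.21 at LP and -0.24 at ML, had a difference of 1.69 (permutation p = 0.00311).

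Among the lower genes, S100A4 had log2 fold changes of 0.04 at LP and -0.27 at ML and a difference at EL of -1.12 (permutation p = 0.0173), and CD36 of 0.24 and 0.17 with a difference of -0.86 (permutation p = 0.0143). For C8A the values were 0.04 and 0.01 with a difference of -0.50 (permutation p = 0.00218). Other genes held the same direction at the 3 time-points. LTF levels had medians of 10.5 and 21.1 CPM at LP and of 27.8 and 64.3 CPM at ML in Fert+ and Fert- cows, and its log2 fold changes there were -0.82 (permutation p = 0.0115) and -1.29 (permutation p = 0.0441) beside -1.59 at EL. The medians of GNAZ were 12.7 and 6.01 CPM at LP and 11.7 and 5.24 CPM at ML, and its log2 fold changes were 0.82 (permutation p = 0.117) and 0.98 (permutation p = 0.0312) beside 1.12 at EL. The differences of LTF and GNAZ between EL and the other time-points had permutation p = 0.396 and permutation p = 0.177. CPT1B had a negative value at LP too (log2 fold change -0.97, permutation p = 0.108) with -0.40 at ML, and its difference at EL was -1.11 (permutation p = 0.0288), or -0.96 without cow 3847 (permutation p = 0.0586).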

How the data were processed

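Liver RNA of 16 cows at EL was analysed from the deposited counts, whole-number counts of read pairs per Ensembl gene (UMD3.1) that the authors made without normalization. According to the submitters' processing notes and the study's methods, base calling used CASAVA 1.8, alignment STAR and counting featureCounts. Tables with 96 unnamed count columns, and the authors' fold changes and p-values, were not used. Groups came from the fertility group in the labels, and cows are separate animals. Read counting error is covered by the fitted spread between cows, and depth is given as library totals.

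Here CPM was computed with TMM factors and a pseudocount of 1 on the log2 scale, and genotypes were compared with edgeR 4.0.16 (limma 3.58.1, R 4.3.3): robust quasi-likelihood F test, two-sided, genes kept by filterByExpr, Benjamini-Hochberg adjustment over all tested genes, threshold 0.05. The study's methods describe the exact test with one common dispersion, which ran as an alternative beside DESeq2 1.42.0, limma-voom, other scalings, filters, samples and batch settings. EL was set against LP and ML in one fit of the 48 liver libraries, with each cow as a replicate block as an alternative, since libraries of a cow number come from the same animal. Tables, two-sided exact permutation tests on log2(CPM + 1) and plots were made with scipy 1.17.1, pandas 2.3.3, numpy 2.4.6 and matplotlib 3.10.9 under Python 3.11.15. The fitting scripts were tested on simulated counts.

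A library was put in counting batch B where more than 50% of 19 genes that are near 0 elsewhere (median at most 2) had at least 50 counts. Gene names came from the study's supplementary tables. Genes were named by rule: the 10 smallest p in each direction, genes with fully separated genotypes, genes the study's text names for liver at EL, from each list the 4 smallest p and 2 highest mean CPM, and the 5 smallest p against the other time-points. Not every gene the rule allows is described. The comparison, the lists and the rule were chosen with earlier results of these data known. Leaving out cows 3847 and 164 together, scaling by library totals and the permutation tests with cows left out or at other time-points were chosen after seeing the data. A gene that the rule names is not reported here.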

Additional observations from a re-analysis of the deposited data

Results flagged for a closer look

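Values of the named genes as log2(CPM + 1) were examined in 168 groups of 8 cows for a lowest or highest cow whose gap to the next was a larger share of the range of its genotype than Dixon's critical value for 8 cows, which chance gives in about 1 of 20 groups. This held in 41 groups, 23 of them for Fert+ cow 3847, 15 for Fert- cow 164 and 1 each for Fert- cows 419 and 982 and Fert+ cow 3445. The genes share libraries and are not independent, and no cause was tested.

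Cow 3847 was high among Fert+ cows by a gap of 0.771 of the range for EDEM1, 0.761 for SOD2, 0.739 for TNFRSF6B, 0.703 for S100A8, 0.697 for TNFRSF12A, 0.645 for TUBA1B, 0.637 for TUBA1C (ENSBTAG00000039992), 0.630 for S100A9, 0.588 for S100A12, 0.582 for HSP90B1 and SUCLA2, 0.578 for HYOU1, 0.574 for M-SAA3.2, 0.570 for TUBA1C (ENSBTAG00000037775), 0.559 for FST, 0.549 for SYVN1 and 0.536 for FSTL1. It was low by 0.655 for MBL, 0.599 for CYP3A5, 0.571 for APON, 0.564 for CPT1B, 0.562 for C1S and 0.532 for BHMT. TUBA1B, an alpha-tubulin, had a log2 fold change of 0.93 ± 0.43 with this cow and 0.13 without it.

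Cow 164 was high among Fert- cows by 0.861 for TNFRSF6B, 0.674 for CCL4, 0.671 for MARS, 0.648 for GARS, 0.643 for SLC3A2, 0.635 for CARS, 0.634 for SYVN1, 0.627 for PGP, 0.620 for DESI1, 0.548 for SLC16A1 and 0.530 for PSPH. It was low by 0.701 for PRDX6, 0.590 for ALB, 0.585 for RBP4 and 0.528 for CYP3A5. For the named amino acid response and synthetase genes its removal moved the log2 fold change up, for MARS to 1.44 and for GARS to 1.37.

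Cow 419 was low for AFM (0.548), cow 982 high for DYNLRB2 (0.593) and cow 3445 high for LRG1 (0.655).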

How the results depend on the processing

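Of 84 identifiers named by the rule and described, 80 kept their direction under every alternative that gave a value. The log2 fold change of SOD2 turned to -0.0065 with DESeq2, -0.0073 with limma-voom, -0.015 with cows 3847 and 164 both left out and -0.10 without batch B, and with a cow left out it ranged from -0.0061 to 1.13. FGB turned to 0.017 with limma-voom and 0.035 with library totals only, and ranged from -0.36 to 0.13 (without cow 164). SAA3 ranged from -1.84 to 0.16 (without cow 982). TUBA1C (ENSBTAG00000037775) turned to -0.14 without batch B and ranged from -0.018 (without cow 3847) to 3.86. The number of genes past an adjusted p of 0.05 was 0 in every fit that left out one cow, without batch B, with batch as a term, without a gene filter, with RLE scaling and without robust estimation. It was 301 by the exact test on a single dispersion, 386 by that test after leaving out the lowest 20% of genes, 12 by DESeq2 and 362 with the 48 liver libraries in a single fit, where 34 of the named genes passed. That fit had no term for the cow and gave each gene a single spread for the 3 time-points. With one dispersion for all genes, the coefficient of variation between cows was 36.5% at EL, 26.8% at LP and 26.6% at ML. A shared spread can therefore be too small for EL. With a cow left out, the genes at an unadjusted p under 0.05 ranged from 630 to 1282 higher and from 437 to 822 lower. The single fit gave 1733 higher and 1185 lower, and library totals, added after seeing the data, 2711 and 135. The exact test without single cows, also added, called 74 (without 3847) to 297 (without 164) higher and 82 (without 756) to 212 (without 3434) lower genes beside 174 and 127, and without batch B 75 and 202.

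The EL difference against LP and ML gave 0 genes and 1496 at an unadjusted p under 0.05, and 897 without cow 3847 at EL. With each cow as a replicate block, which pairs the time-points of an animal, the counts were 0 and 1658 and no call changed. The correlation of AGP with ALB turned from -0.34 to 0.0076 without the 2 farthest cows, and that of ASNS with INHBE passed the threshold without the 2 farthest cows (0.579), without batch B (0.673) and without cow 3847 (0.700). Of the 53 named identifiers with a permutation p under 0.05, many of which were chosen for small p, 43 kept it with each cow left out in turn, a check added after seeing the data. BOLA-DRA, C1S, C2, PRDX6, PYCR1, RBP4, SLC3A2, SYVN1, TIMM17A and TNFRSF10D did not, with p up to 0.0834. Genes under about 1 CPM rest on few counts per library.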

Other observations

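Over the 16 cows, AGP and HP, both acute-phase proteins, varied together (Pearson r 0.65, permutation p 0.0045, adjusted over 3 relations 0.0135, Spearman rho 0.79 with permutation p 0.00047). Without the 2 cows farthest from the median of AGP r was 0.60 (permutation p 0.018), within counting batch A it was 0.72, among Fert+ cows 0.55 and among Fert- cows 0.83. AGP and ALB did not (r -0.34, permutation p 0.20, rho -0.28 with p 0.29), and the value rested on cows 982 and 164. ASNS and INHBE had r 0.38 (permutation p 0.146) and rho 0.32 (p 0.226), with 0.22 among Fert+ and 0.23 among Fert- cows.

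Some lists had more members at an unadjusted p under 0.05 in liver at LP or ML than at EL. Of the sterol synthesis genes 7 of 8 were higher in Fert+ at ML and 0 at EL, with median log2 fold changes of 0.56 and -0.00. Of the interferon-stimulated genes 7 of 14 were lower at LP and 10 of 16 at ML, against 1 of 15 at EL. Of the cell cycle genes 20 of 21 were lower at LP and 2 of 24 at EL. Many of these genes have a name here only because the study listed them at another time-point, so these counts are values, not a test of the difference between time-points.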
